A study of Mus musculus with 4 samples.

Results

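Neutrophils carry ready-made proteins in granules that are filled in order while the cell matures in the bone marrow. The azurophil granules are filled first, the specific granules next and the gelatinase granules last, and the messenger RNA of each class is made mainly in the precursor stage at which that class forms. The calprotectin subunits are not granule cargo but are the most abundant cytosolic proteins of the mature cell, and are grouped with the granule genes here because their messages are so typical of the lineage. The genes of this program that were followed in sciatic nerve were chosen by symbol, with their ratio between the groups already known. They are S100a8 and S100a9 (calprotectin), Mpo and Elane (azurophil granule), Ngp, Camp, Ltf, Lcn2 and Mmp8 (specific granule) and Mmp9 (gelatinase granule). These are 10 of the 50593 genes in the table, so the ratio itself chose them and is given here as a description.

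The nerves came from mice of the strain 129S1/SvImJ at 6 months of age. Mice of the HSF V30M group carry a human TTR V30M transgene, which encodes a transthyretin variant that causes hereditary amyloidosis, on a background without endogenous Ttr and with 1 allele of the heat shock factor gene Hsf1 deleted. The HSF WT controls share the Hsf1 deletion and have no transgene. The labels give 2 mice in each group, and n = 4 stands in the study's methods, which leave unsaid if this counts each group or both. The table holds 1 value per gene and group, in FPKM (fragments scaled to the length of the transcript and to the depth of the library), so no difference between the groups could be tested against the spread between mice. Intervals below cover the counting of fragments only.

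All 6 Schwann cell markers were abundant in both groups, the lowest being Sox10 at 75.7 and 54.8 FPKM in HSF V30M and HSF WT. The mouse Ttr gene had a value in the group labelled to lack it. It stood at 6.10 FPKM in the group labelled HSF V30M, from 131 to 152 fragments. The HSF WT group had it listed at 0, where 3 fragments would have given 0.197 FPKM. The reads were aligned to the mouse genome, and whether reads of the human transgene were counted in this gene was not tested. Hsf1, of which both groups are labelled to lack 1 allele, stood at 7.94 FPKM in HSF V30M and 15.0 FPKM in HSF WT. Each direction below is given for the groups as labelled.

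Transcription of granule genes in the marrow depends on factors of the C/EBP family and on PU.1. Promoters, taken from RefSeq (GRCm38.p6) as the 250 bases before and 50 bases after the start of the gene, were found for 9 of the 10 genes, all but Mmp9. The C/EBP motif TTGCNNAA was present on either strand in 5 of these 9 promoters (Lcn2, S100a9, Mmp8, Ngp and Ltf), and in 10.8% of all 32851 promoters of this length. The PU.1 core GAGGAA was present in 6 of 9 (Lcn2, S100a8, Mmp8, Ltf, Elane and Mpo), and in 28.3% of all. The letters of the TATA box, TATAAA, were present in 3 of 9 (S100a8, S100a9 and Mmp8), and in 13.6% of all. They began 30 bases before the RefSeq start in S100a8, at the start itself in S100a9 and, as TTTATA, 3 bases before it in Mmp8. These are matches of letters and were not tested for binding. The 4 stretches that hold a C/EBP match ahead of the annotated gene are printed to show how the match differs in place and letters between the genes. They read 5′ to 3′ on the strand of the gene, with the match in capitals:
S100a9 (chr3:90695722-90695971, minus strand): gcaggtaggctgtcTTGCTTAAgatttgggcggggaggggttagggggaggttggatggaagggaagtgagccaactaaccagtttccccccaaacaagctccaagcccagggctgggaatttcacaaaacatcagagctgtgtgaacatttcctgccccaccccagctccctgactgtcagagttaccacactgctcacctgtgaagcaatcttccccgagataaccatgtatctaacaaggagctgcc
Ngp (chr9:110419558-110419746, plus strand): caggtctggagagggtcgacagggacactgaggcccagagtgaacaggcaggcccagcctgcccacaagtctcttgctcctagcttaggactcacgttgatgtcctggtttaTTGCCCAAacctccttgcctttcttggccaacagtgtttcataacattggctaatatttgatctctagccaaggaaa
Ltf (chr9:111019042-111019270, plus strand): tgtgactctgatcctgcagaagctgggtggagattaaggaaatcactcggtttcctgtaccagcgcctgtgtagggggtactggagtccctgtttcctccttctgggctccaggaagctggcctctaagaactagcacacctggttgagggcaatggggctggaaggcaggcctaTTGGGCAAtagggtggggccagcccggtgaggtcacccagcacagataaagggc
Mmp8 (chr9:7558179-7558428, plus strand): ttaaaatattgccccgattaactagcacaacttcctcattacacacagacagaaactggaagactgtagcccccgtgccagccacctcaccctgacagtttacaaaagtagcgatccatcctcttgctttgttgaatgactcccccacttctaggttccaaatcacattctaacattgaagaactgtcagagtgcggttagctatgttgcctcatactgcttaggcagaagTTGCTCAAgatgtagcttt
The match began 236 bases before the RefSeq start in S100a9, 138 in Ngp, 75 in Ltf and 19 in Mmp8. The stretches of Ngp and Ltf stop where the GENCODE gene begins. Ngp has another match, 11 bases before the RefSeq start, which lies inside the GENCODE gene and is not shown. The match of Lcn2 began 216 bases before its RefSeq start and lies inside the GENCODE gene, so it is not printed either. Camp had none of the 3 motifs in its window.

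Of the 10 genes, 9 had a higher value in HSF V30M and 1, Mmp9, a lower one. On the scale log2(FPKM + 1), 6 genes were past a fold of 2 in HSF V30M (S100a9, Ngp, Camp, S100a8, Mpo and Lcn2), where 2.53% of the 29177 genes above 0 in either group were, and 1.06% of the protein-coding ones. In the other direction 2.51% of all genes and none of the 10 were past it. Since the genes were chosen on this contrast, nothing is read from that count. The threshold passed between Lcn2, at a log2 ratio of 1.06, and Ltf, at 0.99. The median log2 ratio of the 10 genes was 1.19, and that of all 29177 genes was 0.00. Summed over the 10 genes, the level was 118 FPKM in HSF V30M and 37.1 FPKM in HSF WT, a ratio of 3.18. S100a9 alone made up 50.1% of this in HSF V30M and 37.2% in HSF WT, and without it the ratio of the sums was 2.53. In whole nerve, fewer or more cells of a type cannot be told apart from less or more RNA in each of them.

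**Figure D1:**
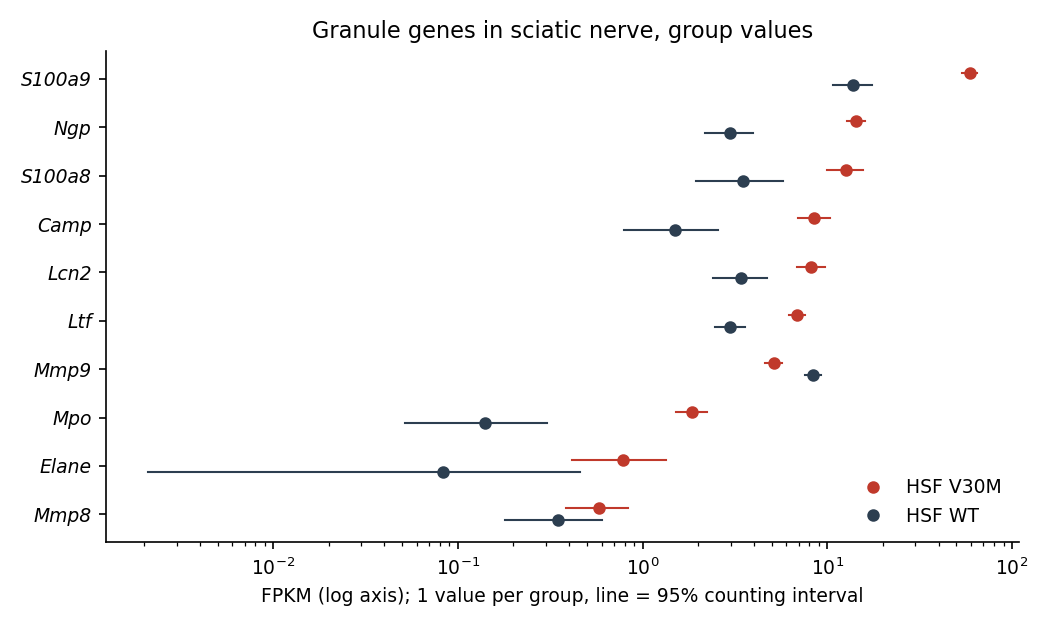
FPKM of the 10 genes (log axis) in HSF V30M (red) and HSF WT (dark), 1 value per group, with lines for the 95% counting interval, which leaves out the spread between mice. The red point lies to the right of the dark one for 9 genes, from S100a9 (59.0 against 13.8 FPKM) to Mmp8 (0.58 against 0.346 FPKM), and to the left of it for Mmp9 (5.12 against 8.37 FPKM).

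S100a9 had the highest level of the 10 genes in both groups. It encodes the larger subunit of the calcium- and zinc-binding heterodimer (chromosome 3, 90692632 to 90695721, minus strand) and stood at 59.0 FPKM in HSF V30M and 13.8 FPKM in HSF WT. The HSF V30M value rests on 408 to 476 fragments and the HSF WT value on 68 to 92, and their ratio was 4.27 (95% counting interval 3.30 to 5.60). Where 2 levels are given in a row below, the first is that of HSF V30M. S100a8, its partner, lies 22.6 kb away and stood at 12.6 and 3.48 FPKM, a ratio of 3.61 (2.06 to 6.75). The balance of the subunits was much alike in both groups. S100a9 stood 4.69 times above S100a8 in HSF V30M (3.68 to 6.06) and 3.96 times above it in HSF WT (2.24 to 7.47), so these intervals overlap.

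The 9 other S100 genes on the list had no common direction. Of these, 5 had a higher and 4 a lower value in HSF V30M, none was past a fold of 2, and the median log2 ratio was 0.09. The nearest to the threshold was S100a11, at 47.7 and 24.7 FPKM. S100a7a, which is not on the list and lies 10.3 kb from S100a8, stood at 4.09 and 8.13 FPKM, a log2 ratio of -0.84. S100b, the Schwann cell member of the family, stood at 328 and 201 FPKM. Among the receptors of calprotectin and lipocalin, Tlr4 stood at 8.70 and 8.57 FPKM and Ager, which encodes RAGE, at 3.65 and 2.35 FPKM. Of the 6 receptor genes listed, the fatty acid receptor gene Cd36 was the one past the fold, at 61.0 FPKM in HSF V30M and 130 FPKM in HSF WT.

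The azurophil genes had the largest linear ratios and the fewest fragments in HSF WT. Mpo, which encodes myeloperoxidase (chromosome 11, 87793581 to 87804413, plus strand), stood at 1.85 FPKM in HSF V30M, from 102 to 119 fragments, and at 0.140 FPKM in HSF WT, from 6 or 7. The ratio was 13.2, with a counting interval of 5.85 to 36.7. Its locus overlaps the antisense gene Gm11505, which was listed at 0 in both groups. Elane, which encodes neutrophil elastase (chromosome 10, 79886247 to 79888215, plus strand), stood at 0.78 FPKM in HSF V30M, from 13 to 15 fragments. In HSF WT it stood at 0.0826 FPKM, which is 1 fragment, and the ratio of 9.44 had an interval of 1.42 to 401. The mean of both groups was under 1 FPKM for Mpo and Elane, as it was for Mmp8.

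Other genes of the same granule that were above 0 in both groups had smaller ratios. The counting intervals of Prtn3 (0.808 to 2.92) and Ctsg (0.357 to 6.05) overlap that of Elane. Prtn3, the proteinase 3 gene that ends 3.07 kb before Elane, stood at 1.92 and 1.28 FPKM. Ctsg (cathepsin G) stood at 0.48 and 0.360 FPKM, and Ctsc, the protease that activates these enzymes, at 33.6 and 43.3 FPKM. Ms4a3 stood at 0.16 FPKM in HSF V30M, from 3 fragments, and was listed at 0 in HSF WT. Of the 5 azurophil genes listed beside the 2 chosen ones, 3 were higher and 1 was lower. The remaining 1 (Bpi) was listed at 0 in both groups, and none was past the fold.

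Of the 5 specific granule genes, Ngp and Camp had the highest ratios of group values. Ngp, which encodes a neutrophilic granule protein with a cathelin fold (chromosome 9, 110419747 to 110423012, plus strand), stood at 14.4 FPKM in HSF V30M, from 319 to 372 fragments, and at 2.96 FPKM in HSF WT. Their ratio was 4.85 (3.57 to 6.74). Camp, the cathelicidin gene (chromosome 9, 109847379 to 109849617, minus strand), stood at 8.50 FPKM from 103 to 120 fragments and at 1.50 FPKM, a ratio of 5.68 (3.18 to 11). Ngp stood above Camp by 1.69 times in HSF V30M (1.35 to 2.14) and by 1.98 times in HSF WT (1.05 to 3.99). Ltf, the iron-binding lactoferrin gene, stood at 6.88 and 2.98 FPKM, a ratio of 2.31 (1.87 to 2.87). Lcn2, the siderophore-binding lipocalin gene, stood at 8.20 and 3.42 FPKM, a ratio of 2.40 (1.66 to 3.55). Ltf stood at 0.839 times the level of Lcn2 in HSF V30M and at 0.872 times in HSF WT. Mmp8, the neutrophil collagenase gene, stood at 0.58 and 0.346 FPKM, and the interval of its ratio of 1.67 holds 1 (0.824 to 3.61).

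Mmp9, the gelatinase gene, went the other way. It stood at 5.12 FPKM in HSF V30M, from 331 to 386 fragments, and at 8.37 FPKM in HSF WT, from 385 to 518. The ratio was 0.612, with a counting interval of 0.527 to 0.711. Mmp9 is also made by macrophages and other cells, and the part of other cells was tested for none of the 10 genes. S100a9 thus stood 11.5 times above Mmp9 in HSF V30M and 1.65 times above it in HSF WT. Counting from the highest level, Mmp9 took place 2 of the 10 genes in HSF WT but place 7 in HSF V30M. Ngp took place 6 in HSF WT but place 2 in HSF V30M. In HSF WT the counting intervals of S100a8, Lcn2, Ltf and Ngp overlap, as do those of Ngp and S100a8, and of Camp, Lcn2 and Ltf, in HSF V30M.

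**Figure D2:**
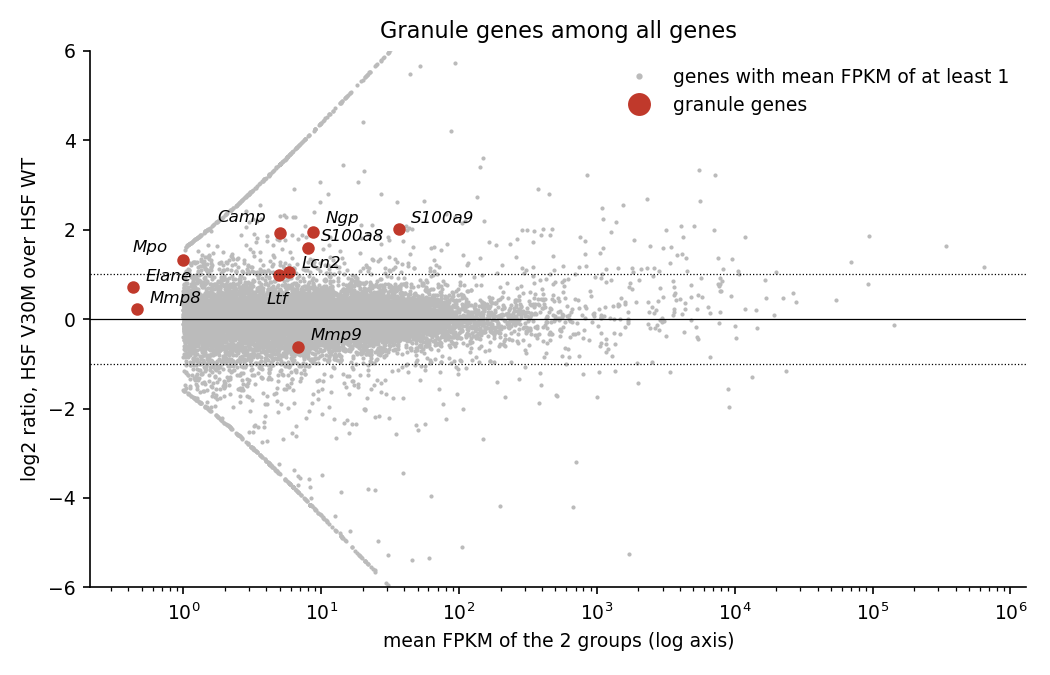
The log2 ratio between the groups (HSF V30M higher above 0), on the FPKM + 1 scale, against the mean FPKM of the 2 groups (log axis), for 15620 genes with a mean of at least 1 (grey) and the 10 granule genes (red), with dotted lines at a fold of 2 and 41 grey genes beyond the vertical range. S100a9 (2.02), Ngp (1.96), Camp (1.93) and S100a8 (1.60) lie above the upper dotted line, as do other genes of like level. Mmp9 (-0.61) lies between the dotted lines.

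The HSF WT values could in part be taken apart into the 2 libraries behind them. For a gene with a single annotated transcript, each fragment adds a fixed step to the deposited value. The step, times the effective length in kilobases, was 0.0481 in the deeper library and 0.0647 in the shallower one. Of 2225 such genes above 0 with low values, 99.6% resolved into exactly 1 pair of whole fragment numbers, with a tolerance of 10 ppm of the value. Of the 10 genes, 4 have a single transcript, and all 4 resolved. Which library belongs to which labelled mouse is not known, and the HSF V30M values, deposited with 2 decimals, could not be resolved.

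Ngp had 63 fragments in the deeper HSF WT library and 0 in the shallower one. This is 5.93 FPKM in the deeper library and, with 3 fragments as the limit, at most 0.380 FPKM in the shallower one, so the deeper library was at least 15.6-fold higher. Camp had 16 fragments and 1 fragment, or 2.76 and 0.232 FPKM. Mmp8 had 12 and 3 fragments, or 0.518 and 0.175 FPKM. The 1 fragment of Elane was in the shallower library, which says little about it. Depth alone would put 57.4% of fragments in the deeper library, and the median over 493 resolved genes with at least 10 fragments was 58.7%. Of these 493 genes, 0.811% had as high a share as Ngp (100%), 1.22% as Camp (94.1%) and 7.30% as Mmp8 (80.0%). Among the 122 resolved genes with at least 40 fragments, the highest share besides that of Ngp was 80.9%.

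The deeper control library stood 11.9 times above the shallower one in Camp, with a counting interval of 1.85 to 498, and 2.97 times in Mmp8, with one of 0.802 to 16.4. In Ngp the gap between the control libraries, at least 15.6-fold, was wider than the ratio of 4.85 between the groups. In Camp, with 1 fragment in the shallower library, the interval of the gap holds the ratio of 5.68 between the groups. The HSF V30M group value still lay above both HSF WT libraries for these 4 genes. For Ngp, 14.4 FPKM was 2.43 times the deeper library and at least 37.9-fold higher than the limit in the shallower one. For Camp, 8.50 FPKM was 3.08 times the deeper library, and for Mmp8, 0.58 FPKM was 1.12 times it, a gap within the counting error of 12 fragments. The other 6 genes, S100a8 and S100a9 among them, have several annotated transcripts and their HSF WT libraries were not resolved. Of the marker genes that resolved with at least 10 fragments, the globin gene Hbb-bt had 20 fragments in the deeper and 1 in the shallower library, and the eosinophil granule gene Prg2 had 8 and 2. The eosinophil ribonuclease gene Ear2 had 5 and 9, the cystatin gene Cst7 had 3 and 9, and the endothelial selectin gene Sele had 15 and 8.

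**Figure D3:**
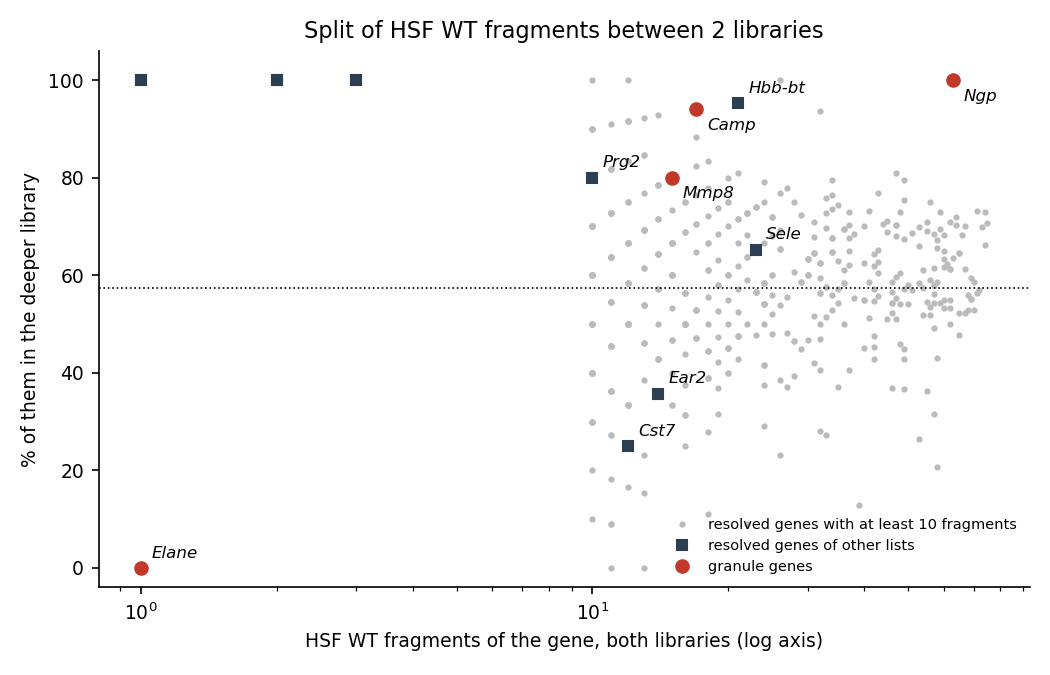
Share of the HSF WT fragments of a gene that came from the deeper library (%) against the number of fragments in both libraries (log axis), for resolved genes with at least 10 fragments (grey), resolved marker genes (dark squares) and granule genes (red), with a dotted line at the 57.4% that depth gives. Among genes with at least 40 fragments, Ngp with 63 is the one at 100%, Camp and Hbb-bt lie near 95%, and Elane rests on 1 fragment.

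Genes that mark mature neutrophils in blood and tissue had no common direction. Of 13 surface receptor genes, 5 had a higher and 8 a lower value in HSF V30M, with a median log2 ratio of -0.08. Only 4 of the 13 had a mean of at least 1 FPKM, and the median over those was -0.61. Cxcr1, Fpr1, Ly6g, Trem1 and Trem3 had at most 4 fragments in either group, which says little about their direction. The receptor for granulocyte colony-stimulating factor, Csf3r, stood at 2.63 and 6.05 FPKM. S100a9 thus stood 22.4 times above Csf3r in HSF V30M and 2.28 times in HSF WT. The part of other cells in the Csf3r values was not tested. The lectin receptor gene Clec4d was the 1 gene past the fold, and it was lower, at 0.40 and 1.84 FPKM. The integrin genes Itgam and Itgb2, shared with macrophages, stood at 5.93 and 7.35 FPKM and at 11.3 and 10.7 FPKM. Ly6g, the usual surface mark of mouse neutrophils, stood at 0.12 FPKM in HSF V30M, from 2 fragments, and at 0.195 FPKM in HSF WT. The chemokine receptor gene Cxcr2 stood at 0.26 and 0.0714 FPKM, from 16 to 19 fragments in HSF V30M and 3 or 4 in HSF WT. Its linear ratio was 3.64, with a counting interval of 1.04 to 19.5.

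The genes of the stefin cluster are also expressed by neutrophils. Of 20 other genes of the granules and of this cluster, 9 had a higher value, 6 a lower one and 5 were listed at 0 in both groups. These 20 include the 5 other azurophil genes already counted above. On the FPKM + 1 scale a single one of the 20 was past the fold, the chitinase-like gene Chil3, at 2.45 and 0.612 FPKM. That scale understates changes of low genes. Cd177 stood at 0.81 and 0.313 FPKM, a linear ratio of 2.59 with a counting interval of 1.35 to 5.39. Retnlg (a resistin-like protein) stood at 3.14 and 1.53 FPKM, a linear ratio of 2.05 whose interval holds 1 (0.935 to 4.95). Pglyrp1 (a peptidoglycan recognition protein) stood at 7.21 and 5.51 FPKM. Hp, the haptoglobin gene, which other cells also express, stood lower in HSF V30M, at 54.0 and 96.5 FPKM. Anxa1 (annexin A1) stood at 53.4 and 49.8 FPKM and Lrg1 at 13.3 and 14.5 FPKM. The part of other cells was tested for none of these 20 genes.

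Among 6 factors of granulocyte development, 4 were higher, 2 lower and none past the fold on the FPKM + 1 scale. Cebpe, the factor of the specific granule stage, stood at 0.17 FPKM in both groups. Gfi1 stood at 0.88 and 0.204 FPKM, a linear ratio of 4.31 (2.03 to 10.5). Cebpd stood at 12.3 and 6.82 FPKM, and Spi1, which encodes PU.1, at 6.28 and 10.4 FPKM. Of 6 inhibitors of granule proteases, the leukocyte protease inhibitor gene Slpi was past the fold, at 1.43 FPKM in HSF V30M and 11.7 FPKM in HSF WT, and Serpina3n stood at 49.7 and 97.2 FPKM. Of 9 genes of neutrophil recruitment, 6 had a higher and 2 a lower value in HSF V30M. A further 1 was listed at 0 in both groups, and the median log2 ratio was 0.06. Cxcl1, a ligand of CXCR2, had the lowest log2 ratio of the 9 (-0.71), at 0.48 and 1.43 FPKM. The platelet chemokine gene Ppbp was the 1 gene past the fold, at 1.82 FPKM in HSF V30M and listed at 0 in HSF WT. The vascular adhesion genes Selp (8.98 and 7.41 FPKM) and Icam1 (16.6 and 16.3 FPKM) were near even.

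**Figure D4:**
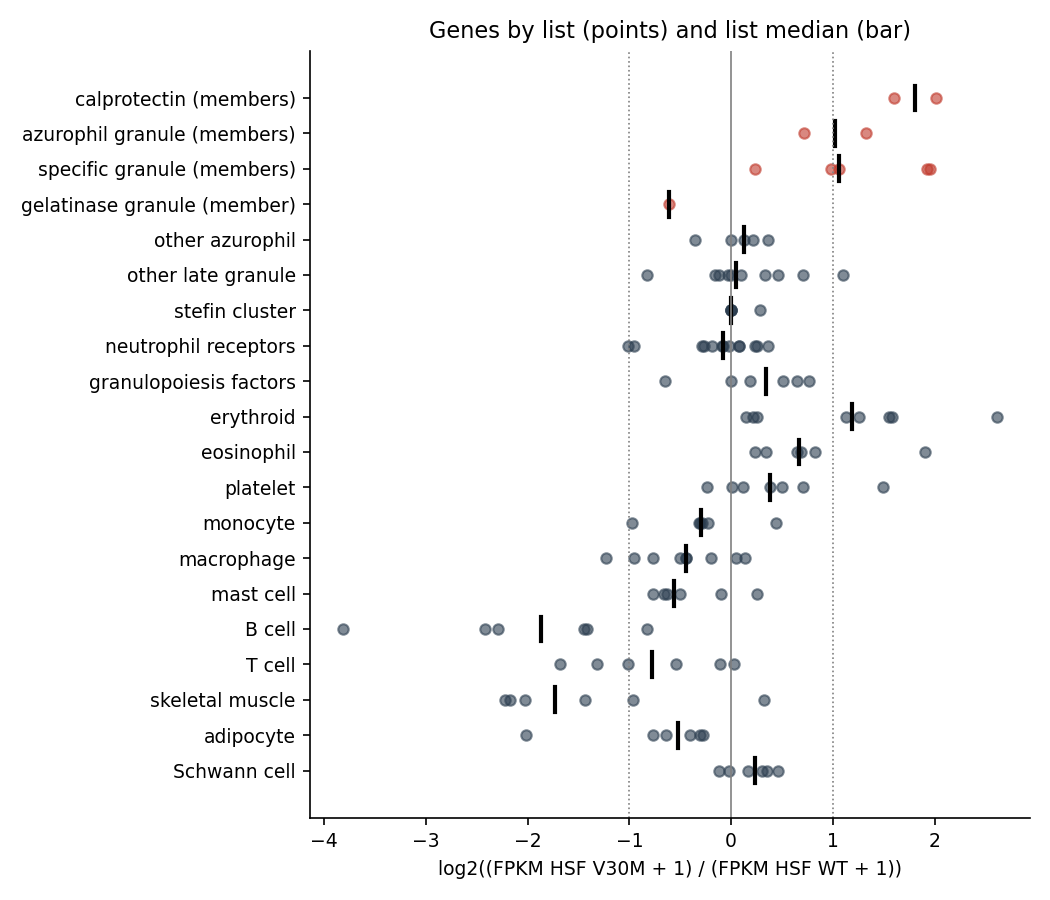
Log2 ratio between the groups, with HSF V30M higher to the right, on the FPKM + 1 scale for each gene of 20 lists (points), with the median of each list (bar) and dotted lines at a fold of 2, in red for the 10 granule genes. The calprotectin and Ngp to Camp points lie with those of the erythroid list on the right, while most B cell and skeletal muscle points lie to the left. The neutrophil receptor points run from -1.02 to 0.37, on a scale that draws the ratios of low genes toward 0.

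Markers of other cells differed between the groups as well. All 8 erythroid genes were higher in HSF V30M, 5 of them past the fold, and their summed level was 296 FPKM against 104 FPKM. The globin gene Hbb-bs stood at 111 and 37.1 FPKM and Slc4a1, the red cell anion exchanger, at 3.20 and 0.925 FPKM, while Alas2, the erythroid heme synthesis gene, stood at 5.71 and 5.08 FPKM. All 6 eosinophil genes were higher, 1 past the fold, with sums of 11 and 2.66 FPKM. Prg2 stood at 5.75 and 0.806 FPKM and Epx, eosinophil peroxidase, at 0.94 and 0.0996 FPKM, and Ear1 and Ear6 were listed at 0 in HSF WT. Of 7 platelet genes, 6 were higher, 1 past the fold, with sums of 57.3 and 57.7 FPKM. Of 10 marrow progenitor genes, 6 were higher and 3 lower, with a median log2 ratio of 0.01, and Dntt was listed at 0 in both groups. The one past the fold, Hlf, stood at 31.3 and 15.0 FPKM.

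Markers of lymphocytes, macrophages, fat and muscle differed in the other direction. All 6 B cell genes were lower in HSF V30M, 5 past the fold, with sums of 4.63 and 68.1 FPKM, of which the antibody joining chain gene Jchain was 2.40 and 46.9 FPKM. Of 6 T cell genes, 5 were lower and 3 past the fold, with sums of 2.93 and 11.1 FPKM. Of 9 macrophage genes, 7 were lower, 1 past the fold (C1qb, at 58.7 and 139 FPKM), with sums of 409 and 614 FPKM. Of the monocyte genes 5 of 6, and of the mast cell genes 5 of 6, were lower, none past the fold, with sums of 234 and 291 FPKM and of 127 and 199 FPKM. Of 6 skeletal muscle genes, 5 were lower, 4 past the fold, with sums of 39.1 and 143 FPKM, and all 6 adipocyte genes were lower, 1 past the fold, with sums of 2318 and 3200 FPKM. The part of these other cells in the values of the granule genes was not tested.

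Genes near the 10 on the chromosomes were read too. Ngp, Camp and Ltf lie within 1.20 Mb of chromosome 9, in a span of 54 annotated genes. Within 100 kb there were 47 genes with a mean of at least 1 FPKM, near 9 of the 10 genes, and Mmp8 had none. Of the 47, none was past the fold in the direction of HSF V30M, where 3.98% of the 15620 genes at that level were. In the direction of HSF WT 2 were past it, where 3.94% of those genes were, so nothing is read from these counts. The median log2 ratio of the 47 was -0.07, with a range from -1.38 to 0.70. The genes most like the 10 in their ratio, with a mean of at least 1 FPKM and a log2 ratio at or above 1.19, numbered 486, which is 3.11% of 15620. Of these, 95 were protein-coding and 248 were listed at 0 in HSF WT. S100a8, S100a9, Ngp and Camp were among them, with 4 erythroid genes and 1 eosinophil gene. The 5 with the largest ratios were short RNA genes, Gm22711, Snord45b, Gm22858, Gm26109 and Gm27505, whose annotated transcripts are no longer than 135 bases.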

How the data were processed

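RNA of sciatic nerve was sequenced on the Ion Torrent platform. Per the labels, STAR, Cufflinks and Cuffdiff were used with the genome build GRCm38, and versions and options are not given in the sources used here. The authors deposited 1 table with the FPKM of each group as Cuffdiff estimated it over the group's libraries, and decimal commas were turned into points. Its columns of fold changes, p-values and calls by the authors were not used. Total counts per library are not in this table, and depth was read from the size of 1 fragment. Of 50593 rows, 23 had no estimate.

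The members and all gene lists were chosen with earlier results of these data known. Named genes were the 10 members, list genes past a fold of 2 or with a mean of at least 1 FPKM, and the 5 genes with the largest ratio. Other genes named were chosen after their values were seen, and 1 list of genes is not reported here. Ratios were log2((HSF V30M + 1) / (HSF WT + 1)), which understates changes of low genes. No count model or test was possible with 1 value per group.

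The effective length was the length of the transcript in GENCODE M21 less 200.66 bases, the offset at which single-fragment values of lone single-transcript genes were most alike. Several offsets were tried before it. The steps were 0.0481 and 0.0647 in HSF WT (0.0395 and 0.0460 in HSF V30M, read less sharply), a depth ratio of 1.35 and 1.17 between libraries. Fragment ranges assume that all or none came from the deeper library, and their intervals are exact Poisson and conditional binomial intervals at 95%. HSF WT values were split into libraries for lone genes with 1 transcript of at least 600 bases and a product of FPKM and effective kilobases under 4, a rule set after the data were seen. Fragments are not independent molecules where they stem from the same amplified template. The steps were tested on simulated data. The work was done in Python 3.11.15 with pandas 2.3.3, numpy 2.4.6, matplotlib 3.10.9 and scipy 1.17.1. Alternatives were another pseudocount, minimum levels, other scalings and single HSF WT libraries.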

Additional observations from a re-analysis of the deposited data

How the results depend on the processing

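No paired analysis was possible because each gene has a lone value in each group. For that reason no mouse could be left out, except in the HSF WT values of the 4 single-transcript genes, an alternative chosen after seeing the data. With either HSF WT library alone, the log2 ratio ranged from 1.15 to 3.94 for Ngp, from 1.34 to 2.95 for Camp, from 0.06 to 0.43 for Mmp8 and from 0.61 to 0.83 for Elane. With a pseudocount of 0.1 the log2 ratio of Mpo was 3.02 in place of 1.32, by the construction of that scale. That of Elane was 2.27 in place of 0.72, so its place below the fold of 2 depends on the pseudocount. The number of genes past a fold of 2 was 6, and 8 with a pseudocount of 0.1 (10.2% of all genes). It was 7 with equal sums (2.58%) and 6 with median-of-ratios scaling (2.51%). Of the 7 left at a mean of at least 1 FPKM, 5 were past it (3.98%). Of the 5 left at a mean of at least 5 FPKM, 4 were (3.53%). The 10 genes kept their direction under both scalings and both pseudocounts, but nothing is read from this. A pseudocount cannot change which group is higher. The group factors of the scalings differed by a log2 of only 0.0036 (median-of-ratios) and -0.031 (equal sums). Minimum levels turned 2 list medians, since fewer genes were left: the median of Ngp, Camp and 3 cystatin relatives went from -0.10 to 1.93, and that of the marrow progenitor genes from 0.01 to -0.012. With full transcript lengths in place of effective ones, 7 of 20 fragment numbers moved beyond their counting interval. Depth limits Elane and Mpo, with 1 and 6 or 7 fragments in HSF WT, and the spread between the HSF V30M mice is unknown for all 10.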
